A study of Mus musculus with 6 samples.

Results

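The 8 genes of the colony-stimulating factor and growth factor receptor family described here were measured in regulatory T cells (Treg), CD4+ T cells that restrain immune responses. They are the receptor genes Csf1r, Csf2ra, Csf2rb, Csf2rb2, Csf3r, Flt3 and Kit and the ligand gene Csf1, 8 of the 26286 genes in the count tables. They were taken by symbol from both tables. The 8 genes were chosen with their values in GFP+ against GFP- cells in view, so those values are given as a description, with no p-value. Where calls among them are counted below, nothing is read from the count. Of the 8, Csf1r, Csf2ra, Csf2rb, Csf2rb2 and Kit (5 genes) passed the filter on low counts that left 10523 genes, and Csf1, Csf3r and Flt3 did not.

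The mice, of the C57BL/6 strain, had a reporter that links green fluorescent protein (GFP) to Blimp-1, a transcriptional repressor encoded by Prdm1. All sample titles carry the prefix BlimpHet, and the labels state neither the age nor the number of the animals. CD4+ CD25high cells were sorted from spleens and lymph nodes that had been pooled, and were divided into GFP+ and GFP- Treg. Each population has 3 libraries, 1 made with poly(A) selection (GFP- replicate 20, GFP+ replicate 19) and 2 with a protocol first devised for single cells but used here on RNA of many sorted cells (replicates 2 and 5 of GFP-, replicates 1 and 4 of GFP+). Values of the 3 libraries are given below in this order, poly(A) first, with GFP- replicates 20, 2 and 5 and GFP+ replicates 19, 1 and 4. The study's design calls the samples of a population biologically independent.

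Total counts of the poly(A) libraries were 27221562 and 28354321, and the single-cell protocol libraries held 15224051 to 17601420. Levels are given as CPM, that is counts relative to the size of the library. Prdm1 was at 2.46 to 9.13 CPM in GFP- and 29.5 to 152 CPM in GFP+ libraries, and Foxp3, the defining Treg factor, was at 1097 to 2210 and 1233 to 2624 CPM. Of 3507 genes on chromosomes 3, 8 and 9, 2851 had counts in the poly(A) pair and 2 had any count in the single-cell protocol libraries, so Csf1 and other genes there could be read in the poly(A) pair only. In the GFP+ cells, 17 of 17 tested macrophage markers, of 22 listed, were higher (edgeR's quasi-likelihood test, Benjamini-Hochberg adjusted), beside 9.81% of all tested genes. Some, such as Mertk with 5, 4 and 1 counts in the GFP- libraries, passed the filter on low counts only through the GFP+ libraries. The list was also chosen with earlier results of these data known, so nothing is read from this count. The sum of the list's 19 genes outside these chromosomes ranged from 18.8 to 32.0 CPM in GFP- and from 905 to 1891 CPM in GFP+ libraries. Libraries of bulk cells cannot tell fewer cells of a type from less RNA per cell.

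Csf1r, Kit and Flt3 are receptor tyrosine kinases of class III. Ligand binding pairs the receptor chains, and the paired kinases phosphorylate each other and recruit adaptors. Csf1r and its ligand Csf1 sustain macrophages, Kit and stem cell factor act in mast cells and progenitors, and Flt3 and its ligand act in dendritic cells and their precursors. Csf2ra, Csf2rb, Csf2rb2 and Csf3r are cytokine receptors without kinase activity of their own and signal through Janus kinases and STAT factors. Csf2ra binds GM-CSF and pairs with the common beta chain Csf2rb, which also serves the IL-3 and IL-5 receptors. Csf2rb2 is a mouse beta chain that serves IL-3 alone. Csf3r is the receptor of G-CSF, the growth factor of neutrophils.

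Csf2rb and Csf2rb2 are neighbours on chromosome 15, and reads of one can match the other. Their coding sequences hold 2688 and 2634 bases, and 2504 of 2626 aligned bases were identical (95.4%), with a longest identical run of 242 bases. Of all stretches of 50 bases in the coding sequence of Csf2rb, 26.0% were also found in Csf2rb2, and 26.6% of those in Csf2rb2 were found in Csf2rb. Counts of the pair are therefore uncertain where reads could be split between them. The stretches below show how alike they can be, and were taken from the GENCODE annotation of GRCm38, whereas the counts rest on mm9. The most different coding stretch of 80 bases held 15 mismatches. It lies in exon 4, at chr15:78338907-78338986 on the plus strand for Csf2rb and at chr15:78294345-78294424 on the minus strand for Csf2rb2, and capitals mark the bases that differ.
Csf2rb exon 4: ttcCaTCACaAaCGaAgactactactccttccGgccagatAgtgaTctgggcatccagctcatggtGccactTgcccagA
Csf2rb2 exon 4: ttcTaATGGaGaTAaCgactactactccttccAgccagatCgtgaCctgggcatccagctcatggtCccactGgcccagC
A stretch of the same length in exon 8 was identical in both genes, at chr15:78341658-78341737 (plus strand) for Csf2rb and chr15:78291573-78291652 (minus strand) for Csf2rb2. A read inside it could not be assigned to one of the genes.
Csf2rb and Csf2rb2 exon 8: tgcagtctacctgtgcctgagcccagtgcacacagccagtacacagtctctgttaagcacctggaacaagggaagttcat

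The promoters of Csf3r, Csf2ra, Csf2rb2 and Kit are shown because a core motif of the PU.1 and ETS factors, GAGGAAG on either strand, was found in each. Sequences are the 250 bases before the gene's start in RefSeq (GRCm38.p6), read along the gene, and capitals mark the motif. It was present in 3486 of 32851 promoters of that length (10.6%). A match is a description of letters, not a site.
Csf3r chr4:126024409-126024658 (plus strand): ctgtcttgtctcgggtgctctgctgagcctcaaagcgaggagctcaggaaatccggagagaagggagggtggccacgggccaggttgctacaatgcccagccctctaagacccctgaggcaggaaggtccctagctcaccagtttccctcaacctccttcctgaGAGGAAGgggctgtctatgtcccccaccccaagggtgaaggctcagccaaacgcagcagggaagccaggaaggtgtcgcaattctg
Csf2ra chr19:61228419-61228668 (minus strand): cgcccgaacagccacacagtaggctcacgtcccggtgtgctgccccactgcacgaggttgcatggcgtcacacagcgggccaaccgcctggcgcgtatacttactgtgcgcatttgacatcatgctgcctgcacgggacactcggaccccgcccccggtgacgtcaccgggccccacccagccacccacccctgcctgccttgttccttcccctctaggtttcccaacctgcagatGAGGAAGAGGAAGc
Csf2rb2 chr15:78305722-78305971 (minus strand): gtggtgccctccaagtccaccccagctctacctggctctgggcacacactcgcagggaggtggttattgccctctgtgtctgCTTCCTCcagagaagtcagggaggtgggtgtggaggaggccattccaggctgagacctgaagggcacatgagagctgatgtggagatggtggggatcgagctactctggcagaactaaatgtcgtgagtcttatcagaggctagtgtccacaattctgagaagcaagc
Kit chr5:75574737-75574986 (plus strand): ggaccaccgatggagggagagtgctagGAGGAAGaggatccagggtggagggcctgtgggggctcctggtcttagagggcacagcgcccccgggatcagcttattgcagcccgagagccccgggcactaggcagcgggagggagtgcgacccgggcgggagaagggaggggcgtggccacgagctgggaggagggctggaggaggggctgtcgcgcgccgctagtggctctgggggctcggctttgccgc
In the promoter of Csf2ra the motif occurs 2 times with an overlap, and in that of Csf2rb2 it lies on the opposite strand, as CTTCCTC. The promoters of Csf1 and Flt3 did not hold these letters in the same window, and those of Csf1r and Csf2rb were not analysed here. Spi1, the gene of PU.1, had a log2 fold change of 3.39 between the populations and is described with the pathway genes. A link between the motif, Spi1 and the levels of these genes was not tested.

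Csf1r, the receptor of the macrophage growth factor, had the widest difference between the populations among the 8 genes. The GFP- libraries had 2.85 CPM in replicate 20, 4.20 in replicate 2 and 3.80 in replicate 5, and the GFP+ libraries had 237 CPM in replicate 19, 332 in replicate 1 and 295 in replicate 4. No GFP+ library came near a GFP- library. The fitted log2 fold change was 6.32 ± 0.28 (SE, 3 libraries in each population), and 14 of the tested genes (0.133%) had a higher one. Counts were 131 against 11660 in the poly(A) pair, a ratio of 83.3 (95% interval 70.1 to 99.8), and 88 against 8131 in the summed single-cell protocol libraries, a ratio of 77.1 (62.5 to 96.2). These intervals, and those that follow, are exact ones for counting error only.

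**Figure D1:**
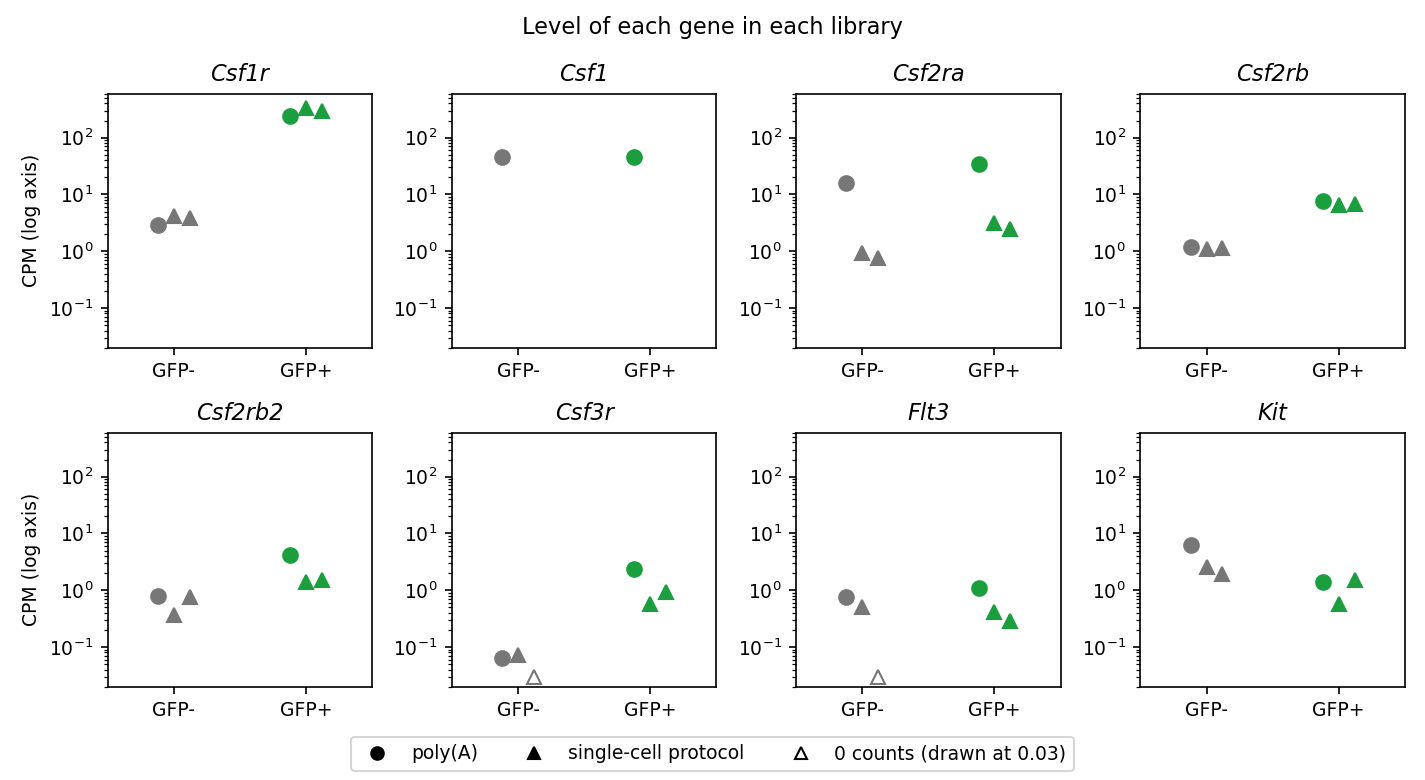
Level of each of the 8 genes in the 6 libraries, in CPM on a log axis, with GFP- and GFP+ Treg and both protocols marked. Csf1r lay at 2.85 to 4.20 CPM in GFP- and at 237 to 332 CPM in GFP+ libraries, while Kit was lower in GFP+ libraries.

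Csf1r was also set against the macrophage markers, which rose in the same libraries. Per 100 CPM of the 17 tested markers, Csf1r took 15.4, 15.5 and 11.9 CPM in the GFP- libraries and 26.5, 23.9 and 15.6 CPM in the GFP+ libraries. All 3 GFP+ values were above the highest GFP- value, with GFP+ replicate 4 only just so. The GFP- values rest on 131, 58 and 30 counts of Csf1r, and no counting interval was computed for these shares. As Csf1r and the marker list were chosen with results of these data known, nothing is read from this order. The part of macrophage RNA in the Csf1r values was not tested.

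**Figure D2:**
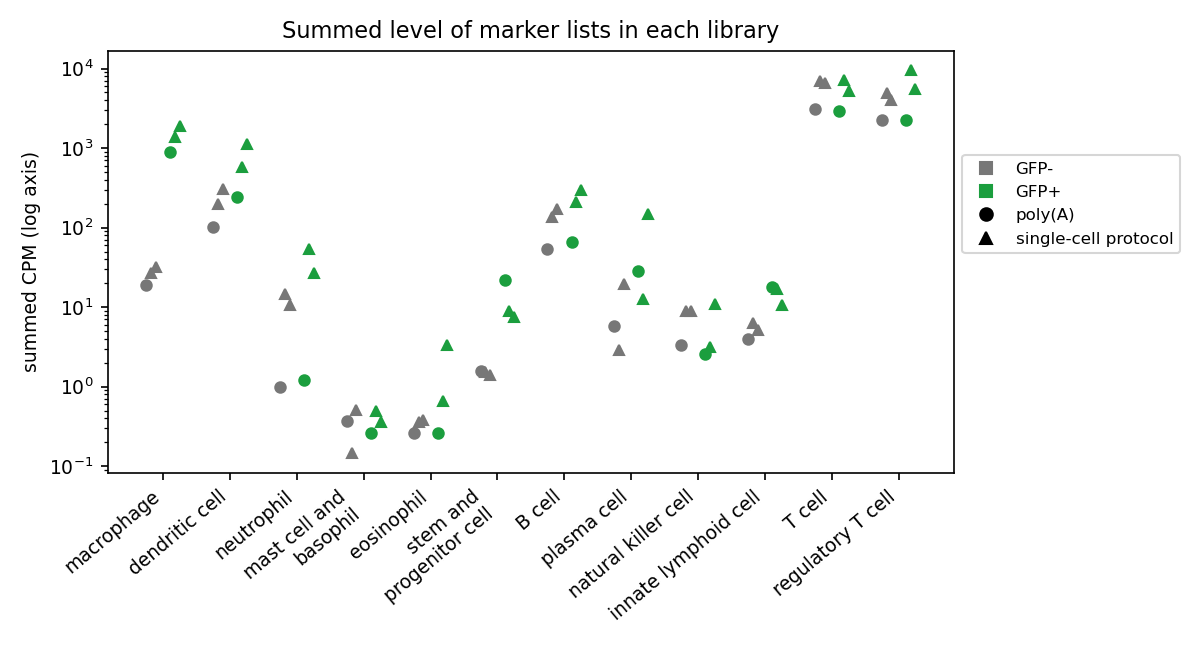
Summed CPM of the marker lists of cell types, T cells and Treg among them, in each library, on a log axis. Genes of chromosomes 3, 8 and 9 are left out. The macrophage sum rose from 18.8 to 32.0 CPM in GFP- to 905 to 1891 CPM in GFP+ libraries. The T cell sum was 3138 CPM in the GFP- and 2924 CPM in the GFP+ poly(A) library, and 5160 to 7131 CPM in the single-cell protocol libraries.

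Csf1, the ligand of Csf1r, could be read in the poly(A) pair only. It had 2080 counts (45.2 CPM) in GFP- replicate 20 and 2228 counts (45.3 CPM) in GFP+ replicate 19, a ratio of 1.00 (0.944 to 1.07). The receptor and its ligand thus had unlike values in the same pair of libraries, with no replicate check for Csf1. Csf1 is on chromosome 3, where the single-cell protocol libraries gave no counts.

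Csf2rb, the common beta chain, was higher in GFP+ libraries of both protocols. It stood at 1.20, 1.09 and 1.14 CPM in the GFP- libraries and at 7.73, 6.46 and 6.82 CPM in the GFP+ libraries. The groups did not overlap, and the spread within each was small. The log2 fold change was 2.62 ± 0.28, with a ratio of 6.47 (4.86 to 8.75) in the poly(A) pair and 6.01 (3.91 to 9.64) in the others.

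Csf2rb2, the chain that serves IL-3 alone, had fewer counts than Csf2rb in every library. It had 0.782, 0.362 and 0.760 CPM in the GFP- libraries and 4.09, 1.39 and 1.52 CPM in the GFP+ libraries. Every GFP+ library lay above every GFP- library, and replicate 19 lay well above the other GFP+ libraries. The log2 fold change was 1.93 ± 0.42, with a ratio of 5.23 (3.65 to 7.68) in the poly(A) pair and 2.88 (1.44 to 6.25) in the single-cell protocol libraries. Leaving out replicate 20 or replicate 19 brought it to 1.45.

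Of the counts of the pair, Csf2rb2 took 39.6% (29.5 to 50.4) in GFP- replicate 20 and 34.6% (30.7 to 38.6) in GFP+ replicate 19. In the single-cell protocol libraries it took 25% and 40% in GFP- replicates 2 and 5 and 17.7% and 18.3% in GFP+ replicates 1 and 4. The GFP- shares there rest on 20 and 15 counts, with intervals of 8.66 to 49.1% and 16.3 to 67.7%. Differences in that share between the populations were not detectable at this depth.

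Csf2ra, the GM-CSF binding chain, had 15.9 CPM in the GFP- and 34.3 CPM in the GFP+ library of the poly(A) pair. Its levels in the other libraries were far lower, where GFP- replicates 2 and 5 had 0.942 and 0.760 CPM and GFP+ replicates 1 and 4 had 3.11 and 2.47 CPM. Within each protocol the GFP+ values lay above the GFP- values, but across protocols the groups overlapped. The log2 fold change with the protocol in the model was 1.39 ± 0.28, and the ratio was 2.16 (1.98 to 2.36) in the poly(A) pair and 3.16 (1.89 to 5.55) in the others.

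Csf3r, the G-CSF receptor, was counted rarely. It had 3, 1 and 0 counts in the GFP- libraries and 116, 7 and 13 counts in the GFP+ libraries, the latter being 2.36, 0.573 and 0.943 CPM. Each GFP+ library was above each GFP- library. The ratio was 36.2 (12.1 to 178) in the poly(A) pair and 16.7 (2.67 to 691) for 1 against 20 counts in the others. Of the neutrophil markers, Ctsg had no count in any library and Elane had 1 count in all 6 libraries together. Lcn2 had 2, 2 and 12 counts in GFP- and 14, 0 and 39 in GFP+ libraries. Retnlg had 0, 0 and 0 against 1, 2 and 9, and Mpo 8, 1 and 3 against 3, 1 and 0. In the poly(A) pair S100a8 had 0 against 14 counts and S100a9 had 7 against 11. The sum was 0.978 to 14.6 CPM in GFP- and 1.20 to 53.5 CPM in GFP+ libraries, mostly from Ly6g. It covers 8 of the list's 14 genes, those outside chromosomes 3, 8 and 9. The part of neutrophils in the values of Csf3r was not tested.

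Kit, the receptor of stem cell factor, was the member with lower levels in GFP+ cells. It stood at 6.24, 2.54 and 1.90 CPM in the GFP- libraries and at 1.38, 0.573 and 1.52 CPM in the GFP+ libraries. All GFP+ libraries were below all GFP- libraries, with GFP+ replicate 4 close to GFP- replicate 5. The log2 fold change was -1.55 ± 0.43, with a ratio of 0.222 (0.168 to 0.290) in the poly(A) pair and 0.467 (0.283 to 0.756) in the others. Without GFP+ replicate 4 it was -2.09. Of the mast cell and basophil markers, Fcer1a and Ms4a2 had no count in any library and the sum stayed between 0.145 and 0.506 CPM in all 6 libraries. Markers of innate lymphoid cells, which can carry Kit, summed to 3.999 to 6.38 CPM in GFP- and 10.6 to 18.1 CPM in GFP+ libraries. Of the 3 tested, Il17rb was higher (log2 fold change 2.81, edgeR adjusted p = 0.00102) and held 7.54 to 15.1 CPM in the GFP+ libraries, Ncr1 was lower (-1.92, edgeR adjusted p = 0.0219) and Il23r did not pass (1.29). The sum of stem and progenitor cell markers was 1.39 to 1.59 CPM in GFP- and 7.61 to 22.0 CPM in GFP+ libraries, mostly from Hlf, the 1 tested gene of 6, which was higher in GFP+ cells (log2 fold change 3.09, edgeR adjusted p = 0.00102). Of the same list, Mecom had no count and Cd34 had 1 count in all libraries together. The part of these cells in the values of Kit was not tested.

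Flt3, the receptor that acts in dendritic cell precursors, was near the limit of the counts. It had 35, 7 and 0 counts in the GFP- libraries and 53, 5 and 4 counts in the GFP+ libraries. The groups overlapped in the single-cell protocol libraries, where the ratio was 1.07 (0.355 to 3.39), and the poly(A) ratio of 1.42 (0.908 to 2.24) had an interval that spans 1. No difference was detectable at this depth. Of the dendritic cell markers, 3 of 7 tested were higher in GFP+ cells, beside 9.81% of all tested genes. They were Itgax, Wdfy4 and H2-Ab1 (log2 fold changes of 3.78, 1.27 and 1.59). H2-Aa, Batf3, Kmo and Siglech did not pass (1.51, 1.22, 0.49 and -0.76). The list was chosen with earlier results of these data known, so nothing is read from this count. The sum of the list was 101 to 309 CPM in GFP- and 244 to 1115 CPM in GFP+ libraries, mostly from H2-Ab1 and H2-Aa. H2-Ab1 held 57.6 to 192 CPM in GFP- and 144 to 654 CPM in GFP+ libraries. H2-Aa held 31.7 to 112 CPM and 61.5 to 443 CPM. Clec9a had 1 count in all libraries together. The part of dendritic cells in the values of Flt3 was not tested.

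**Figure D3:**
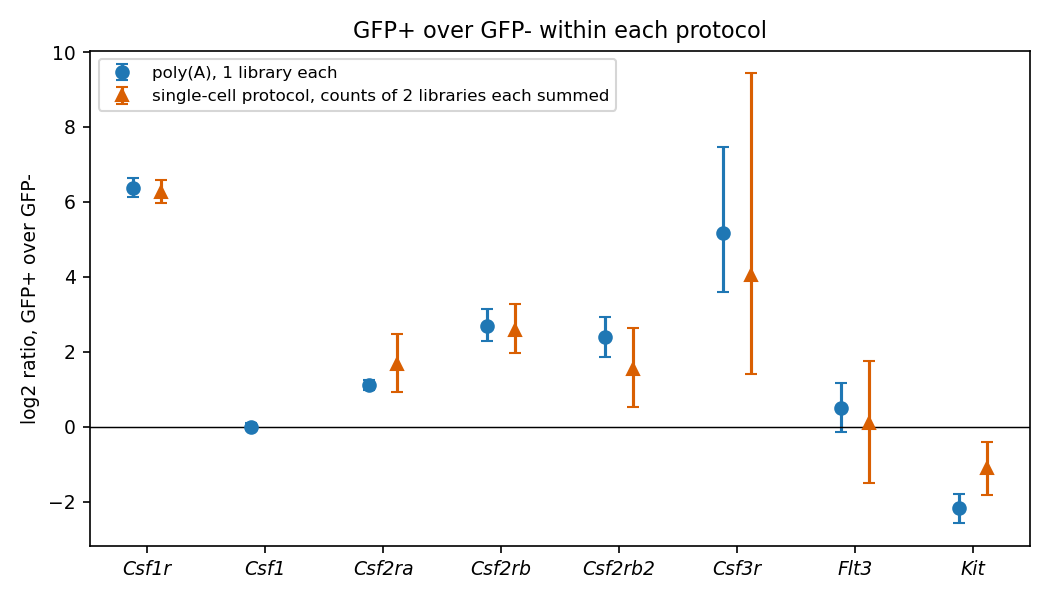
Ratio of GFP+ to GFP- counts for each gene within each protocol, on a log axis with 95% intervals for counting error. Csf1r had ratios of 83.3 and 77.1, Kit lay at 0.222 and 0.467, and Csf1 lay at 1.00 in the poly(A) pair.

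Of the 5 tested members, 4 were higher and 1 was lower in GFP+ cells at an adjusted p under 0.05, beside 9.81% of all tested genes higher and 3.68% lower. As the members were chosen on this difference, nothing is read from that count, nor from which members stay in it. The count also moved with single libraries. Csf2ra left the count without replicate 20 or 19 (log2 fold change 1.68 each time), and Csf2rb2 without replicate 20, 19 or GFP+ replicate 1 (1.45, 1.45 and 2.02). Kit left it without replicate 20, 19, GFP- replicate 2 or GFP+ replicate 1 (-1.08, -1.08, -1.64 and -1.37). The log2 fold change without each library in turn was 6.28 to 6.37 for Csf1r and 2.57 to 2.65 for Csf2rb. The median log2 fold change of all tested genes was -0.08.

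Levels can be set side by side per kilobase of gene length in the poly(A) pair. In GFP- replicate 20 the order was Csf1 at 10.2 CPM per kilobase, Csf2ra at 8.59, Kit at 1.20, Csf1r at 0.735, Csf2rb at 0.251, Flt3 at 0.208, Csf2rb2 at 0.169 and Csf3r at 0.0193. The counting intervals of Csf2rb, Flt3 and Csf2rb2 overlapped. In GFP+ replicate 19 the order was Csf1r at 61.2, Csf2ra at 18.5, Csf1 at 10.3, Csf2rb at 1.62, Csf2rb2 at 0.885, Csf3r at 0.700, Flt3 at 0.295 and Kit at 0.267 CPM per kilobase. Neighbours whose intervals overlapped there were Csf2rb2 with Csf3r and Flt3 with Kit. Csf1r thus moved from the fourth place in the GFP- library to the top in the GFP+ library, and Kit from the third to the last.

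The protocol itself was a comparison that did not enter the choice of the genes. Each protocol has libraries of its own, with 1 poly(A) library in each population. The protocol thus cannot be told apart from other differences between these sets of libraries. Csf2ra was lower with the single-cell protocol than with poly(A) selection, by a log2 difference of -3.87 ± 0.27 (edgeR adjusted p = 1.23e-05, Benjamini-Hochberg), and it was lower in 4 of 4 libraries. Without each library in turn the difference was -4.19 to -3.62. Among all tested genes 3643 (34.6%) were lower and 3211 (30.5%) higher with the single-cell protocol, and 2.57% of them had a lower value than Csf2ra. Csf2rb2 was lower too, with a log2 difference of -1.14 ± 0.39 (edgeR adjusted p = 0.03003), a call that was lost without GFP- replicate 20 (-1.48) or 2 (-1.03) and without GFP+ replicate 19 (-0.56), 1 (-1.03) or 4 (-1.09). Csf1r (0.45 ± 0.25), Csf2rb (-0.17 ± 0.27) and Kit (-0.99 ± 0.42) did not pass the test, with edgeR adjusted p of 0.140, 0.595 and 0.0647. For Kit the test was passed without GFP+ replicate 4 (-1.41), with limma-voom (-1.07, adjusted p = 0.0368) and with no filter on low counts (-0.99, adjusted p = 0.0202). The gene lengths listed with the poly(A) counts are 4619 bases for Csf2rb2, 5182 for Kit, 3875 for Csf1r and 4765 for Csf2rb. With the single-cell protocol counts each is listed at 3000. CPM were not adjusted for length, and its part in these differences was not tested.

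**Figure D4:**
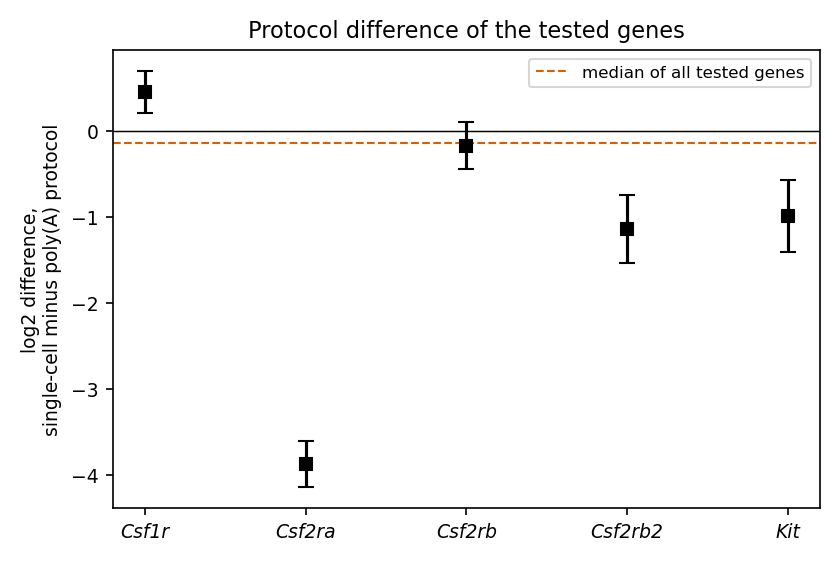
Log2 difference of the single-cell from the poly(A) protocol for the 5 tested members, with bars of 1 standard error. Csf2ra lay at -3.87 and Csf2rb2 at -1.14, and the other members lay between -0.99 and 0.45.

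Csf2ra is a short transcript rich in G and C. Both count tables list 1849 bases for it, while the lengths of the other members in the single-cell protocol table are all 3000 bases, which 8116 genes share. The GC content of its transcript was 57.8%, higher than that of 90.5% of the tested genes. Of the 657 tested genes within 1 percentage point of that content the median protocol difference was -1.21, and 7.31% of them were lower than Csf2ra. Across the 9288 tested genes with a matched transcript, GC content and protocol difference had a Spearman rho of -0.248, given as a description since genes are not independent. The part of GC content in the difference of Csf2ra was not tested.

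Whether the difference between the populations depended on the protocol was asked with an interaction term. No tested gene passed (0 of 10523, 0%), with edgeR, DESeq2 and limma-voom alike, and 24, 13 and 25 genes had an unadjusted p under 0.05. Csf1r had an interaction of -0.09 ± 0.72 and Kit of 1.09 ± 0.96 on the log2 scale. With 2 residual degrees of freedom these errors are wide. The genes with an unadjusted p under 0.05 were a smaller share than the 0.05 that a test passes on average without any interaction. The absence of calls therefore does not show that the difference was alike in both protocols.

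The pathway of these receptors was read from a list of 71 genes in 7 roles, of which 44 were tested. Of these, 11 were higher and 4 lower in GFP+ cells and 29 did not pass, and their median log2 fold change was 0.14. Over all tested genes 9.81% were higher and 3.68% lower, with a median of -0.08. The list was chosen with earlier results of these data known, so nothing is read from these counts. The p-values of its genes are given as a description. Among the ligands only Flt3l was tested, with a log2 fold change of -0.11 ± 0.21 (edgeR adjusted p = 0.780). Kitl, the gene of stem cell factor, was not tested and had 1, 3 and 0 counts in the GFP- libraries and 81, 5 and 19 counts in the GFP+ libraries. Its GFP+ libraries were above its GFP- libraries, but only by 5 against 3 counts between GFP+ replicate 1 and GFP- replicate 2. Kit, its receptor, was lower in the GFP+ libraries, and nothing is read from the 2 together. Csf2 and Csf3, the ligands of Csf2ra and Csf3r, had at most 6 counts in a library, and Il3 had none in any. Il3ra, which pairs with Csf2rb and Csf2rb2, rose by a log2 fold change of 1.13 ± 0.23 (edgeR adjusted p = 0.0128), a call lost without replicate 20, 19 or GFP+ replicate 1 (0.98, 0.98 and 1.13).

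Of 15 tested kinases and STAT factors, 5 rose and 1 fell. Lyn, a kinase of the Src family that acts behind myeloid receptors, rose by a log2 fold change of 3.01 ± 0.30 (edgeR adjusted p = 0.000372). It stood at 2.28 to 4.71 CPM in GFP- and 25.1 to 32.7 CPM in GFP+ libraries. Fgr (1.93 ± 0.24), Syk (1.54 ± 0.24) and Fes (1.36) rose as well, and Pik3r5 fell by 0.76. The call of Syk was lost without GFP+ replicate 19 (1.60), that of Fes without any one library but GFP- replicate 5 (1.12 to 1.38), and that of Pik3r5 without any one but the same library (-0.81 to -0.68). Jak2, which is bound to the beta chains, had a log2 fold change of 0.25 ± 0.40 and did not pass (edgeR adjusted p = 0.736), and Stat5a and Stat5b, the STAT factors of these receptors, had -0.65 and -0.36 without passing, although Stat5a passed with DESeq2 (-0.69, adjusted p = 0.00863). Pik3cg had 0.11 and did not pass.

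Of 7 tested adaptors, 2 rose. Tyrobp, an adaptor of myeloid receptors that also takes part in Csf1r signalling, stood at 1.17, 6.45 and 14.2 CPM in GFP- and at 13.6, 129 and 124 CPM in GFP+ libraries, a log2 fold change of 3.60 ± 0.32 (edgeR adjusted p = 0.000227). Gab2, a docking protein, rose by 3.08 ± 0.56 from levels under 1 CPM, a call lost without replicate 20 or 19 (3.03 each time). Grb2, Vav1, Sos1 and Ptpn11 had 0.62, -0.24, -0.23 and 0.10 and did not pass.

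Of 10 tested negative regulators, 1 rose and 2 fell. Socs3, which restrains Janus kinase signalling of Csf3r, fell by 1.30 on the log2 scale (SE 0.28, edgeR adjusted p = 0.0151), from 52.9 to 163 CPM in GFP- to 16.4 to 85.6 CPM in GFP+ libraries. Sh2b3, an adaptor that dampens Janus kinase signalling, fell by 1.03, and Dok1 rose by 0.82. Socs3 lost its call without GFP+ replicate 1 (-1.07), Sh2b3 without replicate 20, 19 or GFP+ replicate 1 (-1.01, -1.01 and -0.96), and Dok1 without any one library but GFP- replicate 5 (0.67 to 0.90). Dok2, Ptpn6 and Socs2 had 0.37, -0.35 and -0.24 and did not pass. Among 5 tested target genes, Myc fell by 1.86 (SE 0.30, edgeR adjusted p = 0.00410) and Ccnd1, a cyclin that drives entry into the cell cycle, rose by 1.55, a call lost without replicate 20, 19 or GFP+ replicate 1 or 4 (1.76, 1.76, 1.62 and 1.42). Bcl2l1, Pim1 and Ccnd2 had 0.57, 0.40 and -0.07 and did not pass.

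Of 5 tested transcription factors known to act on these receptor genes, Spi1 rose. Its gene product PU.1 acts on the promoters of Csf1r, Csf2ra and Csf3r. It had 1.70, 0.507 and 0.760 CPM in the GFP- libraries and 13.8, 8.26 and 8.27 CPM in the GFP+ libraries, a log2 fold change of 3.39 ± 0.31 (edgeR adjusted p = 0.000253). Cebpa (1.27 ± 0.39) and Myb (0.99 ± 0.29) did not pass, with edgeR adjusted p of 0.0668 and 0.0572. Cebpa passed without GFP- replicate 5 (1.58), and Myb without GFP- replicate 2 (1.16). With DESeq2 both passed (1.22 and 0.97, adjusted p of 0.0394 and 0.0187), and Myb also with limma-voom (0.98, adjusted p = 0.0489) and with DESeq2's size factors in edgeR (0.97, adjusted p = 0.0481). Ets2 and Runx1 had 0.33 and 0.17 and did not pass. Cebpb, not tested, had 1014 and 3306 counts in the poly(A) GFP- and GFP+ libraries and at most 3 in the others. Of the pathway genes named as called, Lyn, Fgr, Tyrobp, Spi1 and Myc kept their call without any one library.

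**Figure D5:**
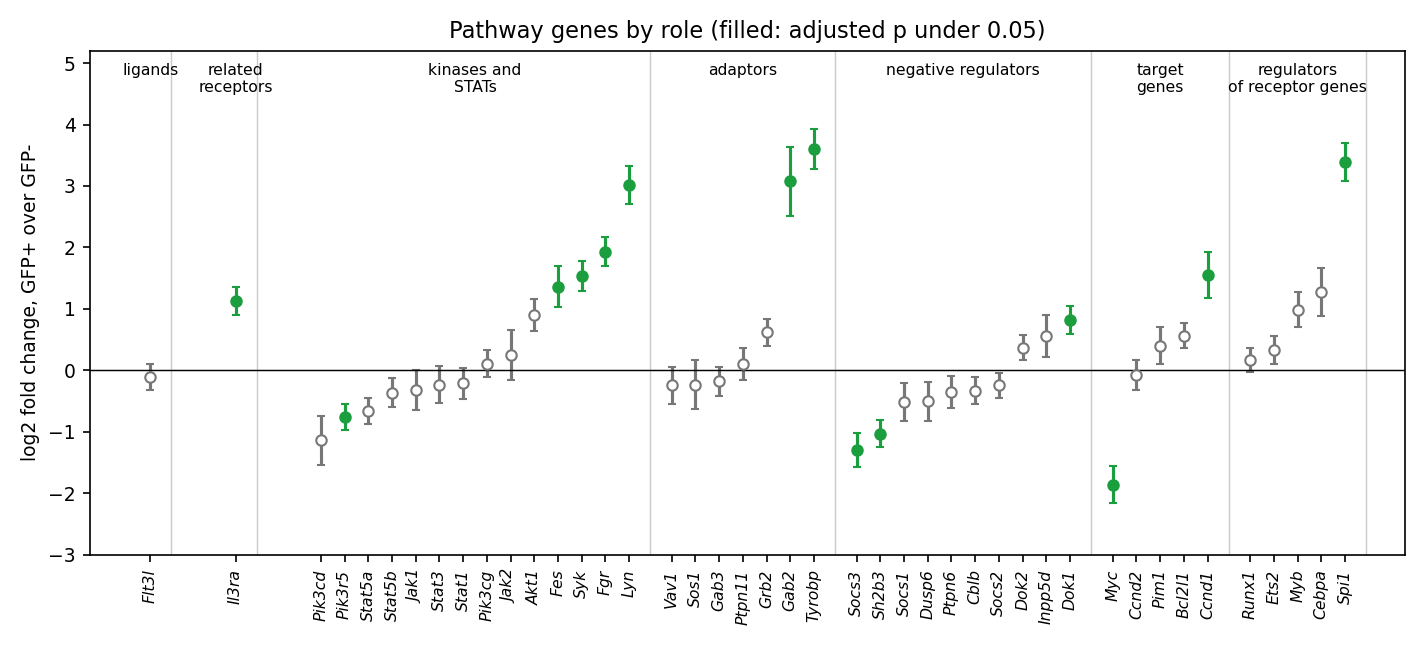
Log2 fold change of GFP+ over GFP- Treg for tested pathway genes by role, with bars of 1 standard error and filled points for an adjusted p under 0.05. Lyn, Tyrobp, Gab2 and Spi1 lay above 3, and Myc lay lowest at -1.86.

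For each tested member the most similar genes were found by the distance between log2 CPM profiles over the 6 libraries, after each protocol's mean was taken away, among 8878 genes. Igf1, Treml4 and Slpi were nearest to Csf1r, at distances of 0.39, 0.41 and 0.42. Igf1 had 0.087, 0 and 0 CPM in the GFP- libraries, so its distance rests on values at the floor there. Trpv2, Vsig10l and Igkv6-15 were nearest to Csf2ra, at 0.11, 0.21 and 0.25. Jag1, Col1a1 and Plxnb2 were nearest to Csf2rb, at 0.27, 0.29 and 0.31. Mpp2, Plekhf1 and Rai14 were nearest to Csf2rb2, at 0.25, 0.44 and 0.45. Peli2, Mapk12 and Rnu3b4 were nearest to Kit, at 0.55, 0.59 and 0.62, the first being at a wider distance than that of the nearest gene of any other tested member. Similar profiles over 6 libraries of 2 populations are shared by many genes, and nothing is read from them about shared control.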

How the data were processed

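RNA of sorted GFP+ and GFP- Treg was measured, with 3 libraries for each. As deposited by the authors, raw counts of each gene fill one table for each protocol, and per the file headers also gene lengths. The submitters' processing notes name Subread, featureCounts, edgeR and the build mm9. Versions and the strand setting are not stated there, so reads of overlapping or near-identical genes may be shared. Values of log2 RPKM were also deposited, per the file headers, and served only as an alternative.

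Both tables hold the same 26286 genes, matched by gene number, and 540 without a symbol stayed in. The analysis ran in R 4.3.3, with edgeR 4.0.16 for the counts and limma 3.58.1 for alternatives. filterByExpr with the population as group left 10523 genes, and TMM scaled the library sizes over them. The quasi-likelihood test was fitted to the 6 libraries with protocol and population as terms (3 residual degrees of freedom), and an added interaction term left 2. P-values were adjusted by Benjamini-Hochberg over every tested gene, and 0.05 was the threshold. Standard errors follow from the F statistic. CPM use the TMM library sizes. Ratios within a protocol carry exact 95% intervals, which cover counting error only, since reads are not independent molecules. No pair of libraries matched within sampling noise (chi-square at least 65.4 per degree of freedom). The fitting was tested on simulated data.

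The members and lists were chosen with earlier results of these data known. Named pathway genes are, for each role, up to 4 with the smallest p and up to 2 with the largest p. One gene that this rule selects is counted but not reported here by name or in the plot of pathway genes. Fes, Pik3r5, Stat5a, Stat5b, Kitl, Csf2, Csf3, Il3 and Cebpb were named in addition, after their values were seen, to complete counts or describe ligands and regulators. So were the markers Elane, Lcn2, Retnlg, Mpo, S100a8, S100a9, Clec9a, H2-Aa, Cd34, Ncr1 and Il23r, to describe their lists. Mertk, Itgax, Wdfy4, Batf3, Kmo and Siglech were named for the same reason. For each tested member the 3 genes with the nearest profile, of at least 1 CPM on average, were sought. Marker sums leave out genes on chromosomes 3, 8 and 9. Alternatives were DESeq2 1.42.0 and its size factors, limma-voom, other filters on low counts, leaving out each library, dropping the protocol, blocks of consecutive title numbers, each protocol alone, and the log2 RPKM values.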

Additional observations from a re-analysis of the deposited data

How the results depend on the processing

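The counts of called genes moved with the settings, and the cause was not tested, except that the filters changed the number of genes tested (21218 with none and 9003 with the stricter one) and some settings used fewer libraries. Genes higher and lower in GFP+ cells were 1032 and 387, but 1682 and 818 with no filter on low counts, 460 and 162 with at least 10 CPM in 2 libraries, 115 and 24 without the protocol in the model, and 562 and 146 in the 4 single-cell protocol libraries alone. DESeq2 gave 714 lower genes. Without each library in turn they were 562 to 1225 and 138 to 790. Pairing libraries by consecutive numbers in their titles, a replicate block that the labels do not state, gave 1658 and 1263. Genes lower with the single-cell protocol were 7209 with no filter on low counts, and without each library in turn the protocol gave 1973 to 3377 higher and 2242 to 3732 lower genes. Of the pathway genes, 18 were higher with no filter, 6 with 10 CPM, 2 higher and 0 lower without the protocol, 17 higher with the replicate block and 5 higher and 2 lower in the single-cell protocol libraries alone, with 5 to 12 higher and 1 to 5 lower without single libraries. Of the 8 genes described, 3 were tested with 10 CPM, and 2 were higher and 0 lower. Csf2rb, Csf2rb2 and Kit did not enter that fit. With no filter all 8 were tested, and 5 were higher and 1 lower. Without the protocol, and in the single-cell protocol libraries alone, 2 were higher and 0 lower. Without single libraries 2 to 4 were higher and 0 to 1 lower. For the 5 tested members, no log2 fold change and no protocol difference changed sign under the alternatives run. As a description, the log2 fold change of Csf1r was 5.87 to 6.38 and that of Csf2rb 2.05 to 2.69, with the lowest from log2 RPKM and the highest from the poly(A) pair, which has no test. Csf1, at a ratio of 1.00 in its 1 pair, had -0.01 with no filter. The protocol difference of Csf1r passed with DESeq2 (0.58, adjusted p = 0.0366), and that of Csf2rb2 did not (-0.98, adjusted p = 0.0805). With the replicate block Cebpa, Myb and Stat5a passed (1.25, 1.00 and -0.65), and Cebpa and Myb also with no filter (1.28 and 0.99). The depth limits Csf3r, Flt3 and Csf2rb2, which rest on fewer than 25 counts in each single-cell protocol library. The low count of genes on 3 chromosomes limits Csf1 to 1 library in each population.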
